A study of Mus musculus with 6 samples.

Results

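The chaperones and oxidative folding enzymes of the endoplasmic reticulum (ER) were examined in RAW264.7 macrophages exposed to SKI-II. The group held 41 genes, listed by name for their role in folding, with earlier results of these data already known, out of 49315 genes in the count table. All 41 were found once in the table, and all 41 were among the 12274 genes with enough counts to be tested. They fall into 7 classes, namely the Hsp70 and Hsp90 chaperones with their nucleotide exchange factors, the J proteins, the lectin chaperones with the enzymes that trim glycans, the disulfide isomerases and oxidases, the KDEL receptors, the prolyl isomerases and a set of other cofactors.

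RAW264.7 is a mouse macrophage cell line, labelled WT here, and SKI-II is a small compound that inhibits sphingosine kinase. RNA was taken after 24 h from cells given 4 μg/mL SKI-II or the vehicle DMSO, with 3 libraries in each group. Poly(A) RNA was sequenced, and the deposited values are raw counts of reads per gene. A single line stands for the macrophage, and nothing in the labels says that the libraries came from separate cultures, so p-values measure only the spread between these samples. In bulk RNA, fewer cells and less RNA per cell cannot be told apart.

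The libraries held 12495957 to 20050677 counts, and mitochondrial transcripts took 1.07% to 1.25% of them with DMSO and 1.38% to 1.71% with SKI-II. All 10 macrophage markers examined were expressed, with a summed level of 8867 to 12921 CPM (counts scaled to the TMM-adjusted library size) with DMSO and 5676 to 8045 with SKI-II. Lyz2 decided the direction of this sum, and the other 9 markers summed to 3223 to 3535 CPM with DMSO and 3905 to 4225 with SKI-II. Of these markers, Fcgr1 and Cd14 rose, Lyz2, Itgam, Adgre1 and Mrc1 fell, and Csf1r, Cd68, Ptprc and Spi1 were not called. The adjusted p of Mrc1 went up to 0.0843 in edgeR, past the threshold, when a library was left out. The markers of fibroblasts, epithelium, T cells and B cells were at or near 0, with at most 18, 0, 6 and 5 counts for a gene in a library. The part of the mitochondrial share and of the macrophage markers in the results that follow was not tested.

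Proteins bound for secretion, for the cell surface or for the lysosome are threaded into the ER, where Hsp70-type and lectin chaperones hold them while they fold and disulfide isomerases form and shuffle their disulfide bonds. When unfolded protein accumulates, the sensors PERK, IRE1 and ATF6 start the unfolded protein response, in which ATF6 and spliced XBP1 are known to bind ER stress response elements in the promoters of chaperone genes. In macrophages this machinery serves the making of cytokines, surface receptors and lysosomal enzymes.

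The promoters of 34 of the 41 genes were found in the RefSeq table of GRCm38.p6, each from 250 bases before to 50 bases after the start site. Because 5 of these genes have more than 1 start site in the table, the 34 genes have 41 promoters. Hspa13, Hyou1, Sil1, Tmx3, Erp29, Kdelr2 and Manf had no entry. Both strands were searched for the ER stress response element (ERSE), which is CCAAT, 9 bases and CCACG. The element is shown first in the 250 bases before the start of Hspa5, at chr2:34771840-34772089 on the plus strand, because this gene carried the most counts of the group after SKI-II. GENCODE M21 places the start of Hspa5 upstream of the RefSeq start, so this match lies inside the gene as GENCODE draws it. The capitals mark the matching bases.
Hspa5: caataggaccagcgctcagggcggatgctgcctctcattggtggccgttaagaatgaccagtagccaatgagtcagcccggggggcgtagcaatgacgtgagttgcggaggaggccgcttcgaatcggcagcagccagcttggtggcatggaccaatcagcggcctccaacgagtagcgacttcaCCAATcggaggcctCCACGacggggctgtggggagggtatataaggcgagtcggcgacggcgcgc

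An exact ERSE was present in 8 of these 41 promoters (19.5%), each of a different gene, and in 39 of the 32851 promoters of the table (0.119%). As the element is already known from promoters of chaperone genes, these shares are a description and not a test. The matches of the other 7 genes are set out with 20 bases on each side, so that genes that rose and genes that were not called can be read against each other. All are written along the strand of the gene, and a match on the opposite strand reads CGTGG, 9 bases and ATTGG. The coordinates are chr8:84847055-84847113 (minus strand) for Calr, chr10:86705618-86705676 and chr10:86705513-86705571 (minus) for Hsp90b1, chr14:118937807-118937865 (plus) for Dnajc3 and chr15:88819500-88819558 (plus) for Creld2, which rose. They are chr11:50325780-50325838 (minus) for Canx, chr12:17266471-17266529 (plus) for Pdia6 and chr13:12565662-12565720 (plus) for Ero1lb, which were not called.
Calr: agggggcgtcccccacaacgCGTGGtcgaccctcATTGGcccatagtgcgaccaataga
Hsp90b1, far match: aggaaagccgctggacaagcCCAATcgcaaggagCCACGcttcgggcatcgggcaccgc
Hsp90b1, near match: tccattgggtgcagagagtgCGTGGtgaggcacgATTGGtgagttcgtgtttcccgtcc
Dnajc3: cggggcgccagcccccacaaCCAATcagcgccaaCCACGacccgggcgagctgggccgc
Creld2: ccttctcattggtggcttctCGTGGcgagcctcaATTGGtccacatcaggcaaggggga
Canx: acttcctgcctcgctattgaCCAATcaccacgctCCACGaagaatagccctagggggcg
Pdia6: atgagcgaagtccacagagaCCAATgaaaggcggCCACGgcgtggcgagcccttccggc
Ero1lb: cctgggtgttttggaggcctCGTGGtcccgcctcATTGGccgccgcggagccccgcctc

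A second element, the core of the unfolded protein response element (UPRE), has the letters TGACGTGG and is known as a site of XBP1 and ATF6. It was present in 222 promoters of the table (0.676%) and in those of Kdelr3, Txndc11 and Txndc5. These 3 are shown because they differ in response, Kdelr3 and Txndc11 having risen and Txndc5 not having been called. In Txndc11 and Txndc5 the match again lies before a RefSeq start but inside the GENCODE gene. The coordinates are chr15:79516358-79516405 (plus) for Kdelr3, where the match lies on the opposite strand, chr16:11134607-11134654 (minus) for Txndc11 and chr13:38528025-38528072 (minus) for Txndc5.
Kdelr3: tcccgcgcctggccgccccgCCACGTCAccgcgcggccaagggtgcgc
Txndc11: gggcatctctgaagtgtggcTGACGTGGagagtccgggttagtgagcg
Txndc5: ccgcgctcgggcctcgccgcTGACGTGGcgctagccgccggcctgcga

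SKI-II raised the transcripts of 21 of the 41 folding genes and lowered those of 2, Erp29 and Erp44, with p-values of edgeR's quasi-likelihood test, adjusted by Benjamini and Hochberg's method over all genes tested, under the threshold of 0.05. The 21 were 51.2% of the group, beside 18.4% of all tested genes that rose, and the 2 were 4.88%, beside 19.7% of all tested genes that fell. The log2 fold change passed 1 in 9 of them, which was 22.0% of the group beside 8.28% of all tested genes. The median log2 fold change was 0.40 over the group and 0.00 over all tested genes, and 31 of the 41 values lay above 0. In 25 of the genes all SKI-II libraries lay above all DMSO libraries, which held for 24.8% of all tested genes. In 2 they lay below, which held for 25.5% of all tested genes, and in 14 the groups overlapped. The 18 genes that were not called had log2 fold changes from -0.38 for Sil1 to 0.31 for Pdia6.

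**Figure D1:**
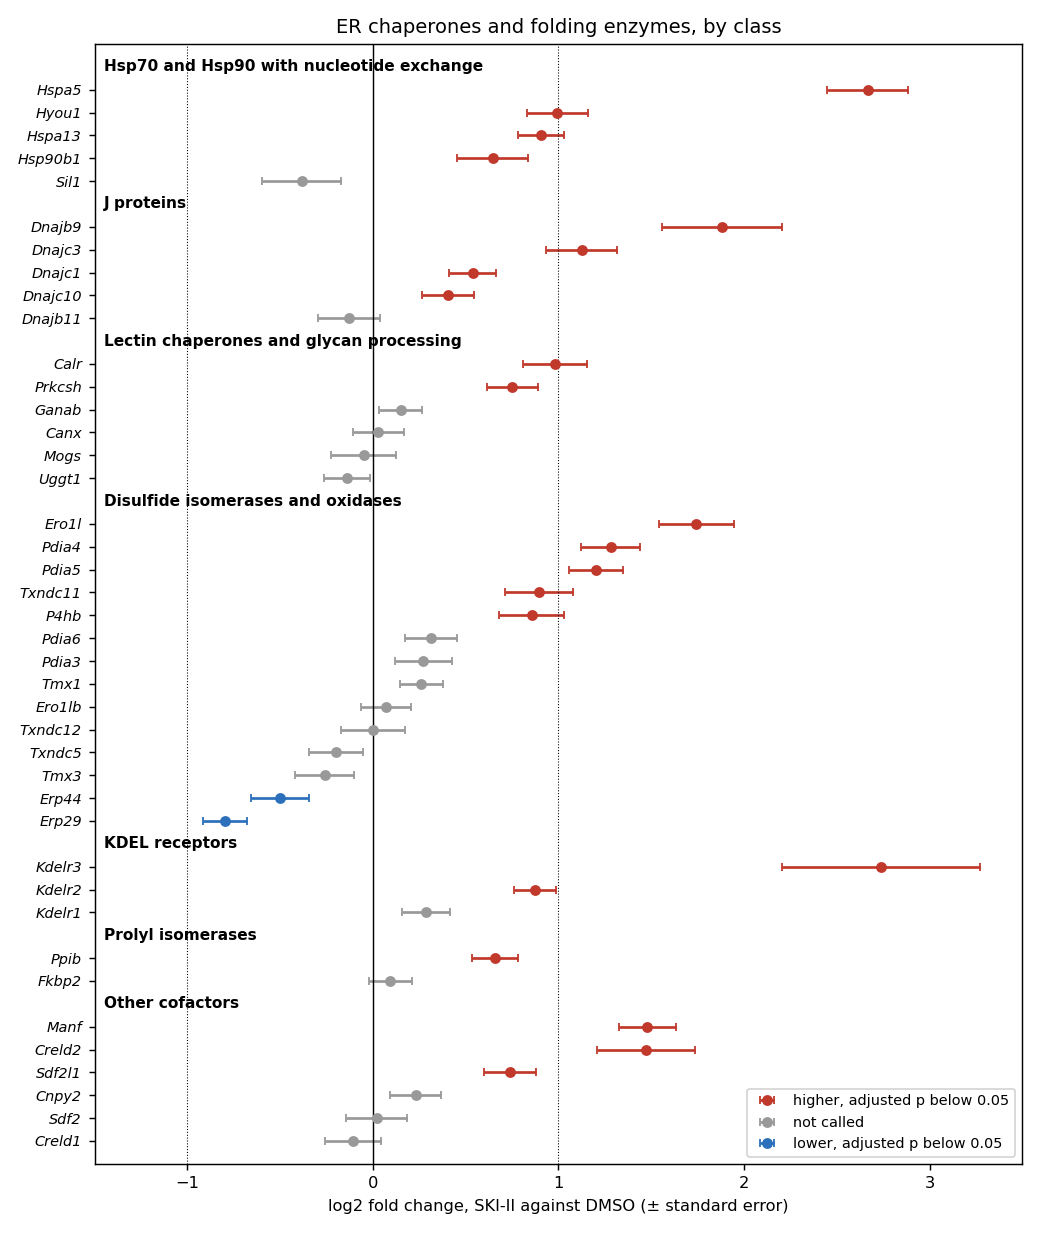
The log2 fold change of SKI-II against DMSO (horizontal axis) of each of the 41 genes, grouped by class, with bars for ± 1 standard error of the edgeR fit over 3 libraries per group. Red points rose, blue points fell and grey points were not called; every class holds at least 1 gene that rose and at least 1 grey point, and the 2 blue points are both disulfide isomerase family members.

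The counts by class are read beside the 18.4% of all tested genes that rose and the 19.7% that fell. The share that rose was 4 of 5 in the Hsp70 and Hsp90 class, 4 of 5 in the J proteins and 2 of 3 in the KDEL receptors. It was 5 of 14 in the disulfide isomerases and oxidases, where 2 of 14 (14.3%) fell, and 2 of 6 in the lectin chaperones and glycan enzymes. Among the prolyl isomerases 1 of 2 rose, and among the other cofactors 3 of 6. The median log2 fold changes were 0.90, 0.54, 0.87, 0.27, 0.09, 0.38 and 0.48 in the same order.

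The group as a whole took a larger part of the messenger RNA after SKI-II. With DMSO the 41 genes held 1.25%, 1.15% and 1.28% of all counts in replicates 1, 2 and 3. With SKI-II they held 3.05%, 2.51% and 2.17%. All SKI-II libraries were above all DMSO libraries, and SKI-II replicate 1 was the highest. Hspa5 alone went from 0.136%, 0.122% and 0.158% of a library to 1.12%, 0.798% and 0.731%, so that its part of the counts of the group was 10.6% to 12.3% with DMSO and 31.8% to 36.8% with SKI-II. Without Hspa5, the other 40 genes held 1.03% to 1.12% with DMSO and 1.44% to 1.93% with SKI-II, again with no overlap.

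**Figure D2:**
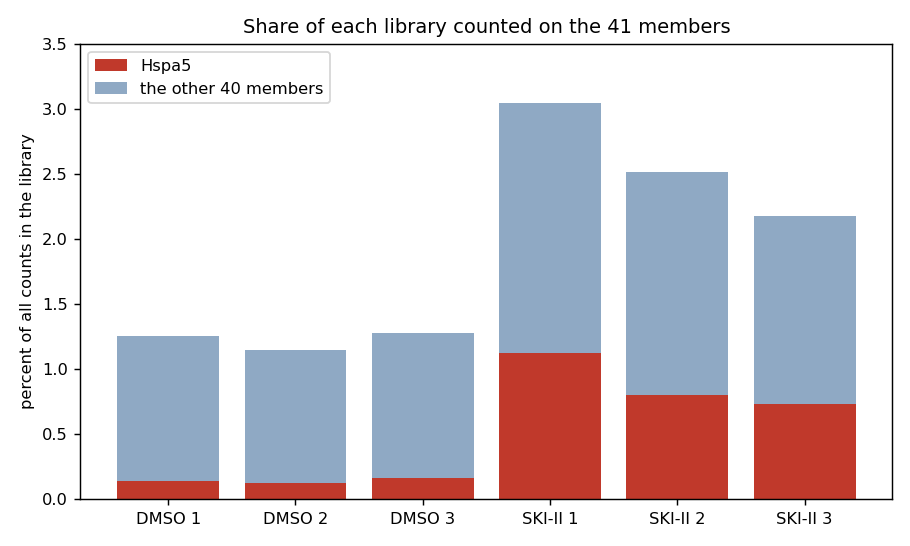
The percent of all counts in each of the 6 libraries that fell on the 41 genes, with Hspa5 in red and the other 40 genes in blue. The DMSO bars end between 1.15% and 1.28% and the SKI-II bars between 2.17% and 3.05%, and the red part is the one that grew most.

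Hspa5, which encodes BiP, the main Hsp70 of the ER and the protein that holds the stress sensors inactive, had the largest gain in counts of the group. The gene (ENSMUSG00000026864) lies at chr2:34771970-34777547 on the plus strand in the GENCODE M21 annotation of GRCm38. Its normalized counts, which are counts scaled to a common library size, were 20869, 19217 and 26920 with DMSO and 178403, 127447 and 119458 with SKI-II. Every SKI-II library was above every DMSO library. The means were 22336 ± 4056 and 141769 ± 31976 (SD, n = 3 each), and the log2 fold change of 2.67 ± 0.22 (SE) passed the edgeR quasi-likelihood test with an adjusted p of 3.18e-05. Levels of different genes were compared as this CPM per kb of exon length. On that scale Hspa5 was at 329 with DMSO, behind Calr at 488, P4hb at 428 and Hsp90b1 at 330. With SKI-II it was the highest of the group, at 2090, ahead of Calr at 964.

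The other chaperones of this class moved less than Hspa5. Hyou1, a large Hsp70 relative that also exchanges the nucleotide of BiP, rose by 0.99 ± 0.16 on the log2 scale. Hspa13, a small Hsp70-type ATPase of microsomes, rose by 0.90 ± 0.12. Hsp90b1, which encodes GRP94, the Hsp90 of the ER, had 22707, 19555 and 21866 normalized counts with DMSO and 42511, 31599 and 26173 with SKI-II. The groups did not overlap, but SKI-II replicate 3 lay closer to the controls than to SKI-II replicate 1. Its log2 fold change was 0.64 ± 0.19, with an adjusted p of 0.0246 in the edgeR test. The call was lost when DMSO replicate 2, or replicate 1 or 2 of SKI-II, was left out, and the value fell to 0.43 without SKI-II replicate 1. Over 10.3% of its exon length Hsp90b1 overlaps 1810014B01Rik on the opposite strand, a gene at 61.3 ± 14.1 normalized counts with DMSO and 76.3 ± 23.5 with SKI-II.

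Sil1, the other nucleotide exchange factor of BiP in the group, was not called. It had 930, 1059 and 1598 normalized counts with DMSO and 986, 726 and 1040 with SKI-II. The groups overlapped, and DMSO replicate 3 was the highest library. The log2 fold change was -0.38 ± 0.21, with an adjusted p of 0.185 in the edgeR test, the lowest value among the genes that were not called. It was -0.12 without DMSO replicate 3 and -0.55 without DMSO replicate 1, and was not called in either case.

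J proteins bring clients to BiP and start its ATP cycle. Dnajb9, a J protein known to respond to ER stress and to hold IRE1 in check, had 78.7, 153 and 230 normalized counts with DMSO and 589, 678 and 433 with SKI-II. The lowest SKI-II library was above the highest DMSO library, although the DMSO libraries differed widely among themselves. Dnajb9 rose by 1.88 ± 0.32 on the log2 scale (adjusted p 0.00179, edgeR), and the value lay between 1.55 and 2.30 when each library was left out in turn. Of the 50-base words of Dnajb9, 5.5% also occur in other genes, most often in Gm6568, so a part of its reads could have been split.

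Dnajc3, which encodes P58IPK, a J protein of the ER lumen also known as an inhibitor of PERK, had 1159, 1041 and 1109 normalized counts with DMSO and 2918, 2649 and 1656 with SKI-II. The groups were apart, with SKI-II replicate 3 the lowest of the treated libraries. It rose by 1.13 ± 0.19 on the log2 scale (adjusted p 0.00154, edgeR). Dnajc1, a J protein of the ER membrane, rose by 0.54 ± 0.13. Dnajc10, a J protein that also reduces disulfides, rose by 0.40 ± 0.14 with an adjusted p of 0.0451 in the edgeR test, the weakest call of the group. The call of Dnajc1 was lost without DMSO replicate 2 (adjusted p 0.0563), and that of Dnajc10 was lost in 5 of the 6 fits that left out a library, with adjusted p-values up to 0.176.

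Dnajb11, the soluble J protein that binds unfolded clients with BiP, did not follow the other members of its class. It had 3022, 2950 and 3024 normalized counts with DMSO and 3180, 3046 and 1998 with SKI-II. SKI-II replicates 1 and 2 were close to the controls and SKI-II replicate 3 was the lowest library. Its log2 fold change was -0.13 ± 0.17, with an adjusted p of 0.579.

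The lectin chaperones hold newly made glycoproteins by a single glucose on their glycans. Calr, the soluble lectin calreticulin, had 23964, 20475 and 23193 normalized counts with DMSO and 51095, 45933 and 36595 with SKI-II. The groups did not overlap. It rose by 0.98 ± 0.17 on the log2 scale, with an adjusted p of 0.00177 in the edgeR test. Canx, the membrane-bound lectin calnexin, had 13050, 13897 and 16034 normalized counts with DMSO and 14215, 14734 and 14894 with SKI-II. All SKI-II libraries of Canx lay within the range of the DMSO libraries. Its log2 fold change was 0.03 ± 0.14.

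Among the enzymes that make and remove that glucose, the subunits of glucosidase II were apart. Prkcsh, its beta subunit, rose by 0.75 ± 0.14 on the log2 scale with an adjusted p of 0.00223 in the edgeR test. Ganab, its catalytic alpha subunit, had a log2 fold change of 0.15 ± 0.12 and was not called, although all SKI-II libraries were above all DMSO libraries. Mogs, which removes the outermost glucose, was at -0.05 ± 0.18. Uggt1, which puts a glucose back on misfolded glycoproteins, had 3996, 4159 and 4701 normalized counts with DMSO and 3929, 4190 and 3555 with SKI-II. The groups overlapped, and its log2 fold change of -0.14 ± 0.12 was the lowest of the class.

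Ero1l, which encodes the oxidase that passes electrons from protein disulfide isomerase to oxygen, rose most among the disulfide enzymes. It lies at chr14:45283087-45318771 on the minus strand. Its normalized counts were 3211, 3091 and 4492 with DMSO and 15412, 10295 and 10429 with SKI-II. The lowest SKI-II library was well above the highest DMSO library. Ero1l rose by 1.74 ± 0.20 on the log2 scale, with an adjusted p of 0.000197 in the edgeR test. Ero1lb, the second oxidase of this kind, was at 924 ± 124 normalized counts with DMSO and 971 ± 55.6 with SKI-II, a log2 fold change of 0.07 ± 0.13. Of the 50-base words of Ero1lb, 9.26% also occur in other genes, most often in Gm18562.

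Of the disulfide isomerases, Pdia4, Pdia5 and P4hb rose. Pdia4, a large isomerase with several thioredoxin domains, had 4421, 4218 and 4595 normalized counts with DMSO and 12954, 10438 and 8764 with SKI-II. Its DMSO libraries were tightly grouped and its SKI-II libraries were all higher, and it rose by 1.28 ± 0.16 on the log2 scale (adjusted p 0.00025, edgeR). Pdia5, a less abundant isomerase, had 355, 359 and 429 normalized counts with DMSO and 989, 802 and 842 with SKI-II. These groups were also apart, and Pdia5 rose by 1.20 ± 0.14 on the log2 scale (adjusted p 0.000207, edgeR). P4hb, which encodes protein disulfide isomerase itself and is also a subunit of collagen prolyl hydroxylase, rose by 0.86 ± 0.17 on the log2 scale, from 428 to 775 CPM per kb. Txndc11, a membrane protein with thioredoxin domains, rose by 0.90 ± 0.18.

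Besides Ero1lb, the 6 remaining genes of this class that did not rise or fall past the threshold were Pdia3, Pdia6, Tmx1, Tmx3, Txndc5 and Txndc12. Pdia3, the isomerase that works with the lectin chaperones, had a log2 fold change of 0.27 ± 0.15, and Pdia6, which acts with BiP, one of 0.31 ± 0.14. Tmx1, a membrane-bound oxidoreductase, was at 0.26 ± 0.11, and Tmx3, a relative of it, at -0.26 ± 0.16. Txndc5, an isomerase with thioredoxin domains, was at -0.20 ± 0.15, and Txndc12, a small oxidoreductase, at -0.0015 ± 0.17. For Pdia6 and Tmx1 all SKI-II libraries lay above all DMSO libraries, and Pdia6 passed the threshold without DMSO replicate 3 (adjusted p 0.0466, edgeR).

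The genes that fell were Erp29 and Erp44. Erp29, a relative of the disulfide isomerases that lacks their active cysteine pair and helps in secretion, lies at chr5:121428590-121452506 on the minus strand. It had 4218, 3767 and 4000 normalized counts with DMSO and 2214, 2523 and 2157 with SKI-II. All SKI-II libraries were below all DMSO libraries, and the log2 fold change of -0.80 ± 0.12 (adjusted p 0.000696, edgeR) was the lowest of the 41. Exons of Naa25 on the opposite strand cover 24.4% of the exon length of Erp29, and Naa25 itself had 2541 ± 212 normalized counts with DMSO and 2053 ± 321 with SKI-II, a log2 fold change of -0.31 ± 0.14 that was not called. The strand used in counting is not stated, and reads from this overlap cannot be assigned to either gene.

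Erp44, which retrieves Ero1 oxidases and unfinished antibody subunits from the early Golgi through mixed disulfides, had 1259, 1245 and 1668 normalized counts with DMSO and 998, 1108 and 847 with SKI-II. The groups did not overlap, and DMSO replicate 3 stood above the other controls. The log2 fold change was -0.50 ± 0.16 with an adjusted p of 0.0305 in the edgeR test. The call was lost when DMSO replicate 3, or replicate 1 or 3 of SKI-II, was left out, with adjusted p-values of 0.0954, 0.0684 and 0.0904.

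The KDEL receptors return escaped chaperones from the Golgi to the ER. Kdelr3 was the least abundant of the 41 genes and the one with the largest fold change. Its raw counts were 8, 6 and 11 with DMSO and 67, 85 and 29 with SKI-II. Every SKI-II library was above every DMSO library, and SKI-II replicate 3 was lower than the other treated libraries. The log2 fold change was 2.74 ± 0.53, the widest error of the group, with an adjusted p of 0.00266 in the edgeR test. On the scale of CPM per kb, Kdelr3 went from 0.386 to 2.65, while Kdelr2 went from 35.4 to 64.8 and Kdelr1 from 35.5 to 43.2.

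Kdelr2 had 1066, 982 and 1068 normalized counts with DMSO and 1903, 1995 and 1805 with SKI-II, and it rose by 0.87 ± 0.11 on the log2 scale (adjusted p 0.000324, edgeR). Both groups were narrow and far apart. Kdelr1 had 1025, 969 and 1206 normalized counts with DMSO and 1289, 1393 and 1215 with SKI-II. These groups were separated only by the small gap between DMSO replicate 3 and SKI-II replicate 3, and the log2 fold change of 0.28 ± 0.13 was not called (adjusted p 0.111).

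Prolyl isomerases turn the peptide bonds before proline. Ppib, the cyclophilin of the ER, had 1602, 1722 and 2017 normalized counts with DMSO and 2641, 2989 and 2801 with SKI-II. The groups did not overlap, and the gene rose by 0.66 ± 0.13 on the log2 scale (adjusted p 0.00274, edgeR). Exons of Snx22 on the opposite strand cover 25.0% of Ppib, with 32.6 ± 6.39 normalized counts of Snx22 with DMSO and 73.1 ± 8.25 with SKI-II, and 8.48% of the 50-base words of Ppib also occur in other genes, most often in Gm10845. Fkbp2, an FK506-binding isomerase, had 1159, 1050 and 1181 normalized counts with DMSO and 1157, 1227 and 1235 with SKI-II. SKI-II replicate 1 fell inside the range of the controls, and the log2 fold change was 0.09 ± 0.11.

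Of the other cofactors, Manf and Creld2 had log2 fold changes above 1. Manf, a secreted and ER-resident protein that binds BiP, had 3006, 2538 and 3263 normalized counts with DMSO and 9355, 8300 and 6872 with SKI-II. The SKI-II libraries were all far above the controls. Manf rose by 1.48 ± 0.15 on the log2 scale, with an adjusted p of 9.57e-05 in the edgeR test. Creld2, a cysteine-rich protein of the ER known to be induced by ER stress, had 2187, 1867 and 1922 normalized counts with DMSO and 8297, 4882 and 3423 with SKI-II. The groups did not overlap, but the SKI-II libraries were spread, with replicate 1 the highest and replicate 3 the lowest. For Creld2 the log2 fold change was 1.47 ± 0.26 (adjusted p 0.00223, edgeR) and went down to 1.05 when SKI-II replicate 1 was left out.

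Creld1, a membrane-anchored relative of Creld2, had 898, 1095 and 1305 normalized counts with DMSO and 1069, 1059 and 935 with SKI-II. The SKI-II libraries lay inside the range of the controls, and the log2 fold change was -0.11 ± 0.15. Sdf2l1, a partner of Dnajb11 in the BiP cycle, rose by 0.74 ± 0.14 on the log2 scale with an adjusted p of 0.0026 in the edgeR test. Its close relative Sdf2 was at 508 ± 76.4 normalized counts with DMSO and 516 ± 77.1 with SKI-II, a log2 fold change of 0.02 ± 0.16, and was not called. Exons of Supt6 on the opposite strand cover 16.0% of Sdf2, and Supt6 had far more counts than Sdf2, with 3747 ± 207 normalized counts with DMSO and 4462 ± 580 with SKI-II. Cnpy2, a saposin-like protein of the ER, was at 0.23 ± 0.14 and was not called.

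**Figure D3:**
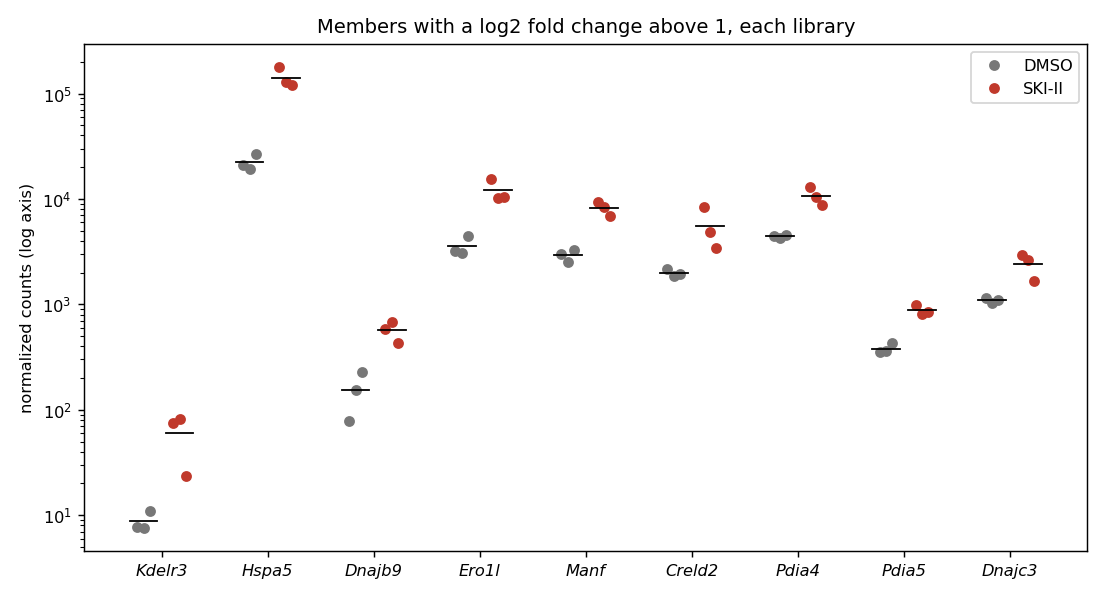
Normalized counts (vertical axis, log scale) in each library of the 9 genes that rose with a log2 fold change above 1, in order of that change, with DMSO libraries in grey, SKI-II libraries in red and a bar at each group mean (n = 3). The groups do not overlap for any of the 9, from Kdelr3, with 7.58 to 10.9 normalized counts with DMSO and 23.6 to 81.1 with SKI-II, to Hspa5, with 19217 to 26920 and 119458 to 178403.

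The size of the rise was not the same in the treated libraries. Among the 21 genes that rose, SKI-II replicate 1 was the highest treated library for 14, replicate 2 for 6 and replicate 3 for 1, and replicate 3 was the lowest for 17. Dnajc1 was the gene with its highest value in SKI-II replicate 3. No such count is given for all tested genes that rose, so this order cannot be read as a trait of the group. Each of the 6 libraries was left out in turn, and 18 of the 21 rises were called in all 6 fits, the exceptions being Hsp90b1, Dnajc1 and Dnajc10. Of the genes that fell, Erp29 was called in all 6 and Erp44 was not.

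To show how unevenly the genes moved, 8 pairs were compared within each library as the log2 ratio of their counts per kb. Of these, 7 join genes of the same family or function, and the pair of Hspa5 and Hsp90b1 joins 2 abundant chaperones of different families. The pairs were picked with the fold changes known, so the differences are a description of size. The log2 ratio of Dnajb9 to Dnajb11 moved by 2.15, from -4.07 ± 0.78 with DMSO to -1.92 ± 0.14 with SKI-II (SD, n = 3 each). The ratio of Hspa5 to Hsp90b1 moved by 2.04, from about equal levels per kb at -0.02 ± 0.22 to 2.02 ± 0.09. That of Ero1l to Ero1lb moved by 1.66, from 2.28 ± 0.11 to 3.94 ± 0.31.

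The ratio of Creld2 to Creld1 moved by 1.47 on the log2 scale, and that of Pdia4 to Pdia3 by 1.00. The ratio of Calr to Canx moved by 0.94, that of Sdf2l1 to Sdf2 by 0.72 and that of Kdelr2 to Kdelr1 by 0.58. In all 8 pairs the SKI-II ratios lay above the DMSO ratios with no overlap.

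**Figure D4:**
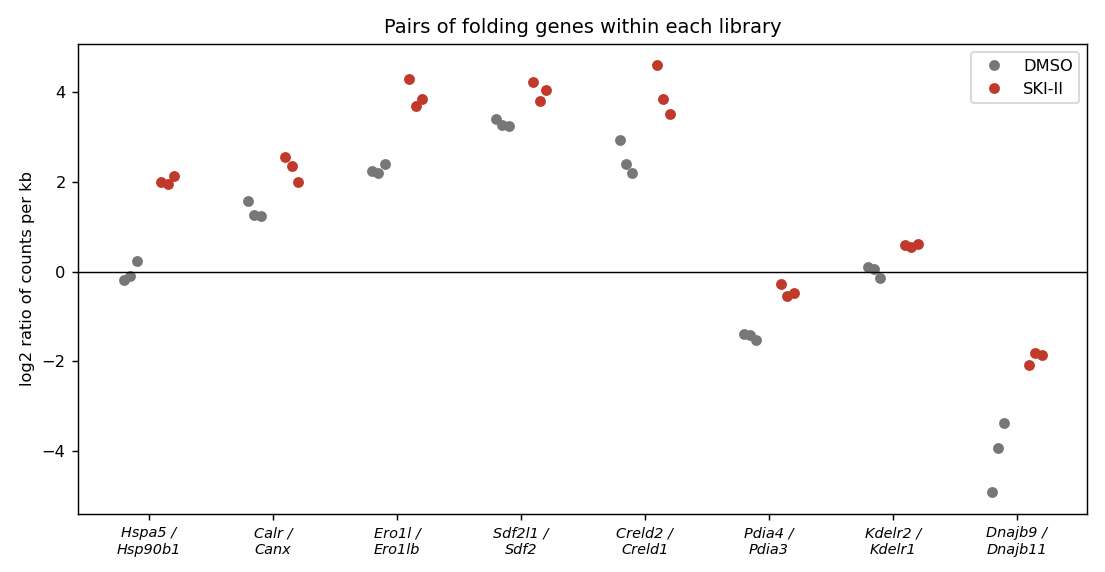
The log2 ratio of counts per kb of exon length (vertical axis) of 8 pairs of folding genes in each library, with DMSO in grey and SKI-II in red. The first-named gene of each pair gained on the second in all 3 SKI-II libraries, most for Dnajb9 over Dnajb11, with a difference of 2.15, and least for Kdelr2 over Kdelr1, with 0.58.

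The exact ERSE was set beside the response. Of the 8 genes with the element, 5 rose (Hspa5, Creld2, Dnajc3, Calr and Hsp90b1) and 3 were not called (Pdia6, Ero1lb and Canx). Of the 26 genes without it in any promoter of the table, 12 rose, 1 fell and 13 were not called. Among all tested genes, with or without the element, 18.4% rose and 19.7% fell. The median log2 fold change was 0.81 with the element and 0.28 without. The element lay between 212 and 47 bases before the start site in these genes, with Hspa5 the nearest to it. Hsp90b1 held a match on each strand, and Canx, with a log2 fold change of 0.03, held its match on the strand of the gene as Hspa5 did.

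**Figure D5:**
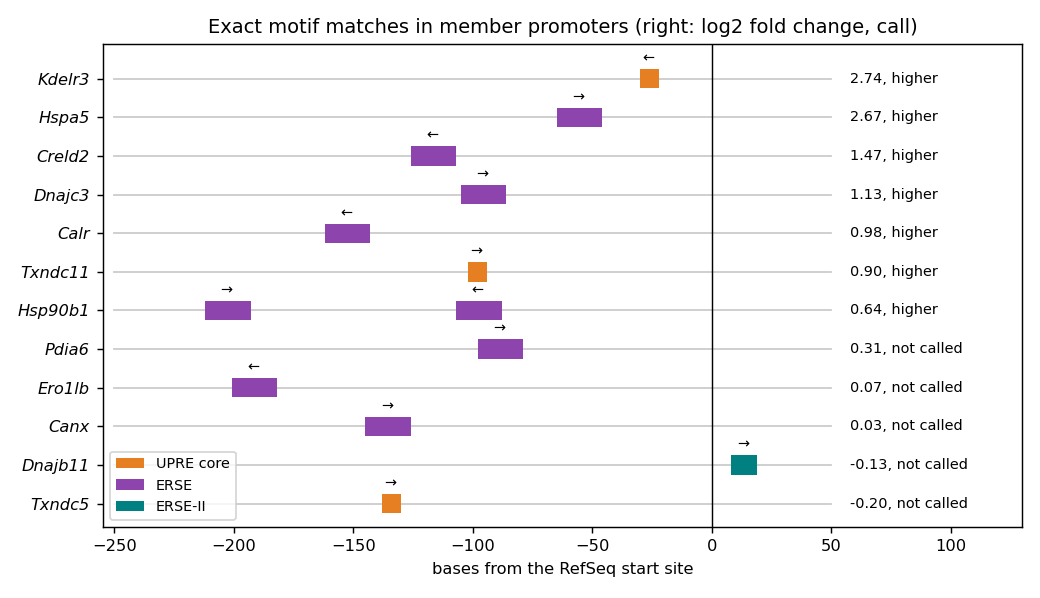
Exact matches to the ERSE (purple), the ERSE-II (green) and the UPRE core (orange) in the promoters of 12 genes, in bases from the RefSeq start site (horizontal axis), with arrows for the strand of the match and the log2 fold change and call at the right. The promoters are ordered by fold change from 2.74 for Kdelr3 to -0.20 for Txndc5, and purple boxes stand beside genes that rose and beside genes that were not called.

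The related element ERSE-II, which is ATTGG, 1 base and CCACG, was in 12 promoters of the table (0.0365%) and in 1 of the 41, that of Dnajb11. It shares its CCACG box with the ERSE. The composite site of ATF4, with the letters TGATGNAA, was in 3.97% of all promoters and in 3 of the 41 (7.32%). These were promoters of Txndc5, Kdelr1 and Cnpy2. Of these 3 genes 0 were called, where 18.4% of all tested genes rose and 19.7% fell. The core of the antioxidant response element known for Nrf2, with the letters TGACNNNGC, was in 12.4% of all promoters and in 7 of the 41 (17.1%), namely those of Calr, Pdia3, Txndc5, Txndc11, Tmx1, Kdelr3 and Sdf2l1. The matches of the antioxidant core in Txndc5 and Kdelr3 overlap the UPRE core. Of the 7 genes with the antioxidant core, 4 rose and 3 were not called, beside the same shares of all tested genes. A match describes the letters in this window, and binding was not measured.

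Other genes that act in ER folding were followed with a separate list of 48, of which 39 were tested. In this list 15 rose and 5 fell, with a median log2 fold change of 0.09. The largest rises were those of Fkbp11, a prolyl isomerase of the ER, by 1.36 ± 0.19 on the log2 scale, Mcfd2, a cargo receptor subunit, by 1.35 ± 0.16 and Selenos, a selenoprotein of ER-associated degradation, by 1.32 ± 0.16. Cnpy3, a chaperone cofactor of Toll-like receptors, had the lowest log2 fold change at -1.47 ± 0.13, followed by Dnajb14, a J protein of the ER membrane facing the cytosol, at -1.10 ± 0.14. In this list 38.5% of the tested genes rose and 12.8% fell, beside 18.4% and 19.7% of all tested genes and 51.2% and 4.88% of the 41 genes. The difference between the lists was not tested.

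Genes listed as regulators of the unfolded protein response moved in both directions. The list holds sensors and transcription factors, and also other proteins such as Ppp1r15a and Ppp1r15b. Whether they act on the folding genes in these cells was not tested. Of 20 regulators of the unfolded protein response, 7 rose (35.0%, beside 18.4% of all tested genes) and 6 fell (30.0%, beside 19.7%), with a median log2 fold change of 0.16. Ppp1r15a, which directs the dephosphorylation of eIF2 alpha, rose by 3.15 ± 0.29 on the log2 scale, Ddit3, the stress factor CHOP, by 1.67 ± 0.36 and Creb3, a membrane-bound transcription factor of the ER, by 1.31 ± 0.15. Ppp1r15b, the constitutive counterpart of Ppp1r15a, had the lowest value at -0.95 ± 0.13, and Ybx1, a cold shock domain protein, followed at -0.91 ± 0.21. Of the sensors, Ern1, which encodes IRE1, rose by 0.78 ± 0.20 (adjusted p 0.0136, edgeR), while Eif2ak3, which encodes PERK, was at 0.02 ± 0.13 and was not called. Atf4, the factor translated when PERK is active, rose by 0.41 ± 0.14 (adjusted p 0.0412, edgeR), and its adjusted p went up to 0.149, past the threshold, when a library was left out. Of the factors known to act at the ERSE, Atf6 was at 0.18 ± 0.18, Xbp1 at 0.35 ± 0.14, Nfyb at 0.02 ± 0.15 and Nfyc at 0.25 ± 0.19, and these 4 were not called. Nfya, another subunit of the CCAAT-binding factor NF-Y, was lower at -0.46 ± 0.12, Gtf2i at -0.48 ± 0.12 and Atf6b at -0.47 ± 0.15, with adjusted p-values of 0.0117, 0.00904 and 0.0301 in the edgeR test. The adjusted p of Atf6b went up to 0.104 when a library was left out, past the threshold. Total transcript counts do not show the splicing of Xbp1 or the cleavage of ATF6.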

How the data were processed

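RNA-seq libraries of RAW264.7 cells, 3 with SKI-II and 3 with DMSO, were grouped by the treatment in the sample labels. The authors deposited raw read counts per gene. The submitters' processing notes name Trimmomatic 0.36, STAR 2.5.2b, featureCounts, Subread 1.5.2 and DESeq2. The strand setting, annotation and genome build were not given in the sources used here. Labels do not state dose or time. The dose comes from the methods of the study and the time from a figure legend.

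Gene names, positions and exon lengths were taken from GENCODE M21 (GRCm38), which named 48970 of 49315 identifiers. Promoters came from RefSeq. Groups were compared in R 4.3.3 by the quasi-likelihood test of edgeR 4.0.16, using TMM scaling, the default expression filter (a minimum count of 10 and a total of 15) and Benjamini-Hochberg adjustment over 12274 genes. A gene was called where this p was below 0.05. Standard errors came from the fitted weights and quasi-likelihood dispersion. Normalized counts were scaled to 16042438. Library totals of 12495957 to 20050677 limit mainly Kdelr3, which had fewer than 10 counts in some DMSO libraries. Replicates differed by more than counting noise (chi-square 16.7 to 64.2 per degree of freedom).

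The 41 genes, their classes, the lists and the tests were chosen with earlier results of these data known. All 41 are named. Values in every library are given for genes called with a log2 fold change above 1, for the largest and the smallest change in each class, for the KDEL receptors and for genes under 10 counts, and for some related genes beside them. From the other lists, the 3 largest and the 2 smallest called changes are named. Ern1, Eif2ak3, Atf4, the factors that act at the ERSE and the macrophage markers were named outside this rule, as were Naa25, Snx22, Supt6 and 1810014B01Rik, which overlap at least 10% of the exon length of a gene of the group. Alternatives were no filter, 10 counts in every library, RLE scaling, library size alone, DESeq2 1.42.0, limma-voom (limma 3.58.1), a prior count of 2, the replicate number as a block, and each library left out. The programs were tested on simulated counts, where edgeR recovered 85.0% of 200 genes changed by a log2 fold change of 1, with 7 false calls. The simulation gave all genes 1 common dispersion and changed only genes above a minimum count. The data differ in both respects and hold many more called genes, so these rates may not carry over.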

Additional observations from a re-analysis of the deposited data

How the results depend on the processing

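The number of folding genes that rose, 21, stayed within 1.5 times of that value in every alternative run, and no gene of the group that was called changed its direction. The number that fell, 2, was 1 to 2 when a library was left out, and 1 where DMSO replicate 3, or replicate 1 or 3 of SKI-II, was left out and Erp44 was lost. Dnajc10 was also lost with library size alone (adjusted p 0.0592) and with limma-voom (adjusted p 0.0513). Kdelr3 has no value where 10 counts in every library were required. The titles share replicate numbers, but the deviations of same-numbered libraries correlated by 0.246, 0.00994 and 0.458, so the numbers were not taken to pair the samples. Of the DMSO libraries, only replicate 3 correlated best with the SKI-II library of its own number. With the replicate number as a block, 22 genes rose and 2 fell, Pdia6 being added with an adjusted p of 0.0498. Depth limits Kdelr3 most, with 6 to 11 counts in the DMSO libraries.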
